A study of Mus musculus with 4 samples.

Results

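The genes of the hypoxia-inducible factors (HIFs) and of cellular oxygen sensing were followed by RNA sequencing in the mouse colon carcinoma line MC38. The set was chosen by name and holds 10 of the 24346 gene symbols in the tables: the HIF subunits Hif1a, Epas1 and Arnt, the prolyl hydroxylases Egln1, Egln2 and Egln3, the degradation factor Vhl, the asparaginyl hydroxylase Hif1an, and the HIF targets Ndrg1 and Car9. Of the 4 libraries, 2 were labelled wild type (WT) and 2 were labelled Arid5a knockout (KO), both made from the MC38 line. The labels give no treatment, time, oxygen level or culture density, and do not say whether the knockout line was 1 clone or whether the libraries of a group came from separate cultures. The p-values therefore measure only the spread between these libraries, which may be technical. KPC cells, which the series design also names, were not analysed here.

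HIF is a heterodimer of an oxygen-regulated alpha subunit and the constitutive partner ARNT. In the presence of oxygen, the EGLN prolyl hydroxylases (also called PHD enzymes) hydroxylate the alpha subunit, and the von Hippel-Lindau protein VHL then recruits a ubiquitin ligase that sends it to the proteasome. A further oxygen-dependent enzyme, HIF1AN (also called FIH), hydroxylates an asparagine of the alpha subunit and blocks its contact with coactivators. When oxygen falls, the alpha subunit escapes both marks, joins ARNT and binds hypoxia response elements near genes of glycolysis, mitophagy and angiogenesis, and near some genes of its own degradation, which closes a feedback loop. The regulation of the alpha subunit is mainly at the level of the protein, which RNA sequencing does not measure.

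Values are FPKM, fragment numbers scaled by transcript length and sequencing depth, so levels can be compared between genes. From the low values, depth was estimated at about 15300000 and 11700000 fragments under the WT label and 10200000 and 11300000 under the KO label. Arid5a, the targeted gene, encodes an mRNA-binding protein. Its level was 0.225 and 0.124 FPKM under the WT label and 2.16 and 1.77 FPKM under the KO label. Its RNA was thus higher under the label that names its knockout. Whether the transcript was altered, the protein lost or the labels exchanged was not tested. Every direction below therefore refers to the library labels and not to a measured loss of Arid5a. Of 15 epithelial markers, 14 were below 1 FPKM in all 4 libraries, and Epcam, Cdx1, Cdx2 and Cldn7 were listed at 0 throughout. The remaining epithelial marker, Elf3, was at 3.38 and 4.42 FPKM under the WT label and 6.11 and 4.42 FPKM under the KO label. Of 14 leukocyte markers, 10 were below 1 FPKM in all 4 libraries, and the myeloid markers Adgre1 and Itgam and the T cell marker Cd3e were at 0 in all of them. The summed level of the leukocyte markers was 10.4 and 13.3 FPKM under the WT label and 3.32 and 2.72 FPKM under the KO label. Most of it came from Cd68 (6.14 and 5.80 FPKM against 1.03 and 1.67 FPKM) and S100a8 (1.77 and 4.61 FPKM against 1.06 and 0 FPKM). Ptprc was at most 0.0854 FPKM. Csf1r went the other way, at 0 and 0.0231 FPKM against 0.053 and 0.167 FPKM. The summed level of 10 fibroblast markers was 45.2 and 41.1 FPKM against 20.02 and 20.7 FPKM, and none of them was at 0 in all 4 libraries. The fibroblast sum was carried by Col3a1 (29.3 and 26.4 FPKM against 6.78 and 6.86 FPKM) and Dcn (5.13 and 4.53 FPKM against 0.613 and 0.993 FPKM), and the list did not move one way. Col1a1 was at 0.275 and 0.246 FPKM against 2.14 and 1.95 FPKM, Pdgfra overlapped between the groups, and the list's median level was 0.256 and 0.174 FPKM against 0.474 and 0.727 FPKM. The part of these other cell-type transcripts in the results was not tested.

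Of the 10 genes, 5 rose in the libraries labelled KO: Ndrg1, Egln1, Arnt, Hif1a and Vhl. Neither Egln2, Egln3 nor Hif1an passed the test, and the target Car9 just missed it. Epas1 was all but absent. The groups did not overlap for 7 of the 9 tested genes, 5 with KO above and 2 with KO below. Of all tested genes 77.5% showed such a gap, 39.4% with KO above and 38.2% with KO below. The 9 tested genes lay above the filter of 1 FPKM in every library, with a lowest value of 6.44 FPKM, so the filter did not select them by group. With limma and calls made at an adjusted p under 0.05 (Benjamini-Hochberg), 5 of 9 were higher, where 24.4% of the 10827 tested genes were. None was called lower with limma, where 23.3% of all tested genes were, and 1 (Car9) was lower at an unadjusted p under 0.05. When the libraries were scaled to the same sum, the 5 higher calls stood and 2 genes, Egln3 and Car9, were called lower. Under that scaling the calls over all genes went from 2641 higher and 2518 lower to 1937 higher and 3261 lower. The median log2 change was 0.32 over the 9 genes and 0.006 over all tested genes.

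**Figure D1:**
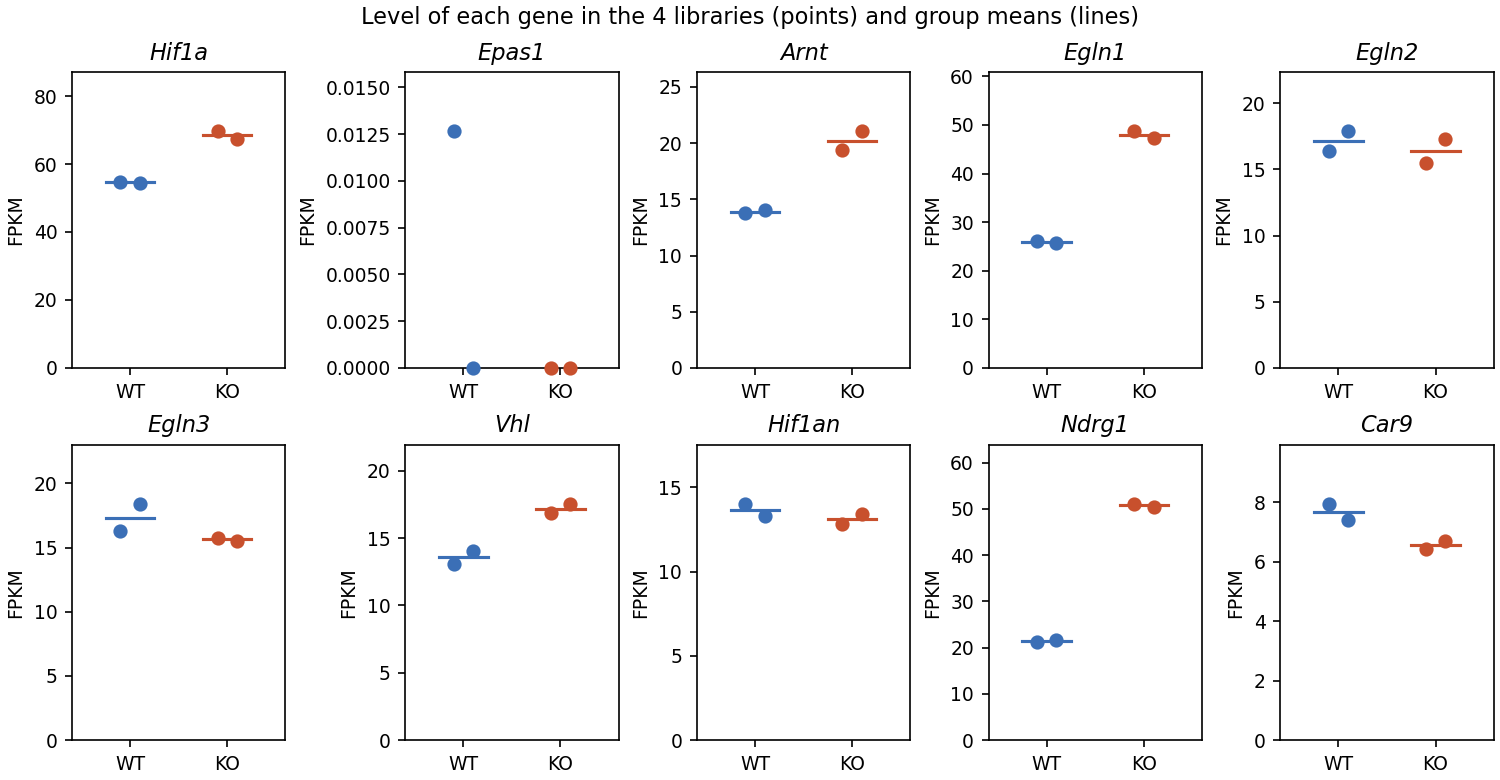
Level in FPKM (y axis, from 0, with a scale of its own for each gene) in the 2 libraries labelled WT (blue) and the 2 labelled KO (orange); points are libraries and lines are group means, left out for Epas1. Ndrg1 and Egln1 stand furthest apart, while the points of Egln2 and Hif1an overlap between the groups.

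Because several of these genes are thought to be direct HIF targets, the bases before their start sites were searched for the core of the hypoxia response element. RefSeq promoter sequences (GRCm38.p6) were at hand for 8 of the 10 genes, in 9 windows. Those of Epas1 and Ndrg1 were not analysed here. The letters ACGTG were searched on both strands in the 250 bases before each start. They occurred in 5 of the 9 windows and in 16.6% of all 32851 promoters searched in the same way. The alternative core GCGTG, counted separately, occurred in 4 of the 9 windows, against 28.2% of all promoters. Among 2 lists of other known HIF targets, ACGTG was found in 13 of 33 windows (39.4%) of the glycolytic genes and 17 of 39 windows (43.6%) of the others.

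The ACGTG matches are shown with their flanks, on the strand of the gene, because they let Egln1 be set beside the other PHD genes and Car9. Capitals mark the match, or its reverse complement CACGT.
Egln1, chr8:124949306-124949334, minus strand: gggccgtggtgtACGTGcagcgcgcgcgg
Egln2, chr7:27166834-27166862, minus strand: agcctcctgtcaACGTGcggttcgcgcac
Egln3, chr12:54204087-54204115, minus strand: tgtgcatctcagACGTGagatccaggttt
Car9, chr4:43506996-43507024, plus strand: ctatttccgatgCACGTacagcccgtcca
Hif1a, first match, chr12:73907720-73907749, plus strand: cacacagacaagCACGTGagcggggcagct
Hif1a, second match, chr12:73907785-73907813, plus strand: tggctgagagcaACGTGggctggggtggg

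The capitals begin 68 bases before the RefSeq start in Egln1, 48 in Egln2, 229 in Egln3 and 18 in Car9. In Hif1a they begin 135 and 70 bases before the RefSeq start, which lies 37 bases before the nearest GENCODE start of the gene and 6492 bases inside the gene as GENCODE bounds it, so this window precedes an internal start. The first of these matches reads the same on both strands, so that it also is an E-box, the motif of MYC and related factors. In GENCODE the capitals of Egln1 and Car9 overlap an exon of the gene, since a start is annotated 70 and 60 bases before the RefSeq start. For Car9 the nearest GENCODE start lies only 2 bases before the RefSeq start, and the capitals precede it. Thus Egln1, which rose, and Egln2, Egln3 and Car9, which were not called, all held the letters. Vhl and Hif1an held neither motif in this window, and Arnt held GCGTG only. A match is a description of letters and not evidence of binding.

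Hif1a, the widely expressed oxygen-regulated alpha subunit, was the most abundant of the 10 transcripts in both groups. The gene lies on the plus strand of chromosome 12 (73901375 to 73947530) in the mouse assembly GRCm38, the one that mm10 denotes. Its level was 54.7 and 54.5 FPKM under the WT label and 69.6 and 67.5 FPKM under the KO label. Both KO values were above both WT values, and the 2 WT values differed by less than 1 FPKM. The log2 change came to 0.32 ± 0.033 (SE; adjusted p from limma = 0.00154), and the ratio of the group means was 1.26. Averaged over the 4 libraries, Hif1a was above 84.9% of all tested genes.

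Epas1, which encodes HIF-2alpha, the alpha subunit best known from endothelium, kidney and lung, was at the floor of detection. The gene lies on the plus strand of chromosome 17 (86753700 to 86833410). It was at 0.0126 FPKM in WT replicate 1 and listed at 0 in the other 3 libraries. At the estimated depth and for its longest annotated transcript, 0.0126 FPKM is the value of about 1.03 fragments. A level of 3 fragments, the most that a count of 0 allows, would be 0.0482 FPKM in WT replicate 2 and 0.0553 and 0.0499 FPKM in the libraries labelled KO. These limits cover counting error only. No change of Epas1 could be detected at this depth, and any shift between the alpha subunits could not be tested. Of the 10 endothelial markers, 10 were below 1 FPKM in all libraries, with Kdr and Tie1 at 0. Hif3a, the least studied alpha subunit, reached at most 0.0145 FPKM.

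Arnt, the shared beta subunit, rose as well. The gene lies on the plus strand of chromosome 3 (95434388 to 95497240). Its level was 13.7 and 14.0 FPKM under the WT label and 19.4 and 21.0 FPKM under the KO label. The groups did not overlap, and the spread was wider among the KO libraries. The log2 change came to 0.51 ± 0.055 (SE; adjusted p from limma = 0.00185). In the libraries labelled WT the ranges of Arnt, Hif1an and Vhl overlapped, whereas in those labelled KO Arnt stood above both.

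The wider family of partner subunits was mostly silent. Of 12 other HIF and ARNT family genes, 4 were tested, of which 1 rose and 2 fell, with a median log2 change of -0.13. Over all tested genes 24.4% rose and 23.3% fell, and so few genes cannot be set apart from those shares. Arntl (BMAL1), the ARNT paralog of the circadian clock, rose by 0.41 ± 0.073 (SE; limma, adjusted p = 0.00865). Its paralog Arntl2 fell by 0.58, and Ahr, the dioxin receptor that also pairs with ARNT, fell by 0.36. Clock, the circadian partner of BMAL1, was at 9.18 and 9.30 FPKM against 9.70 and 10.2 FPKM and did not pass the test. Arnt2 was at most 0.0597 FPKM, and Npas2, Npas3 and Sim2 were at 0 in all 4 libraries.

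The 3 PHD enzymes, which mark the alpha subunit for destruction, parted. Egln1 (PHD2), the main HIF prolyl hydroxylase in most cells at normal oxygen, nearly doubled, while Egln2 (PHD1) and Egln3 (PHD3) did not pass the test. Egln1 was at 26.1 and 25.7 FPKM under the WT label and at 48.7 and 47.2 FPKM under the KO label. Both KO values were far above both WT values, and within each group the values lay within 2 FPKM of each other. The ratio of the means was 1.85, and the log2 change came to 0.86 ± 0.037 (SE; adjusted p from limma = 0.000168). Only 1.69% of all tested genes had a higher log2 change. Egln1 lies on the minus strand of chromosome 8 (124908587 to 124949324) and has 1 annotated transcript.

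Egln2, on the minus strand of chromosome 7 (27158658 to 27166802), was at 16.4 and 17.9 FPKM against 15.5 and 17.3 FPKM. Its groups overlapped, and its log2 change was -0.06 with a 95% interval from -0.25 to 0.12 (limma, adjusted p = 0.516). Egln3 is known as a strongly hypoxia-inducible PHD enzyme. It lies on the minus strand of chromosome 12 (54178981 to 54203860) and was at 16.3 and 18.4 FPKM against 15.8 and 15.5 FPKM. Both KO values lay below both WT values, by less than the WT libraries differed from each other. The log2 change was -0.14 with a 95% interval from -0.31 to 0.04 (limma, adjusted p = 0.154). With libraries scaled to the same sum it was -0.20 and passed (adjusted p = 0.0494), the lowest adjusted p over the 14 alternatives, which ranged up to 0.573.

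The difference between the PHD enzymes was itself tested. The log2 change of Egln1 exceeded that of Egln2 by 0.92 ± 0.083 (SE; limma, adjusted p = 0.0011) and that of Egln3 by 1.00 ± 0.070 (SE; adjusted p = 0.000551). The changes of Egln2 and Egln3 differed by 0.07, with a 95% interval from -0.11 to 0.26 (limma, adjusted p = 0.423), so a difference within that range could not be shown either way. In FPKM, Egln1 was 1.59 and 1.44 times Egln2 in the libraries labelled WT and 3.15 and 2.72 times Egln2 in those labelled KO. The summed level of all 3 enzymes was 58.8 and 62.0 FPKM under the WT label and 79.9 and 80.1 FPKM under the KO label. Egln1 made up 44.4% and 41.5% of that sum in the first group and 60.9% and 59.0% in the second.

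**Figure D2:**
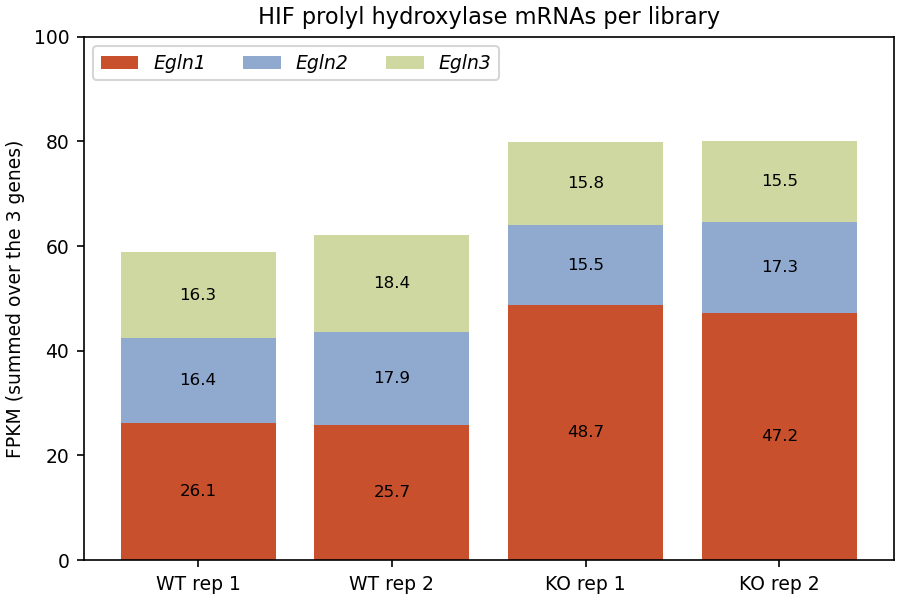
FPKM of Egln1, Egln2 and Egln3 (stacked segments with their values) in each library. The Egln1 segment grows from 26.1 and 25.7 to 48.7 and 47.2 FPKM, and the other segments stay between 15.5 and 18.4 FPKM.

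Vhl, the substrate-binding subunit of the ligase that reads the PHD mark, rose modestly. It lies on the plus strand of chromosome 6 (113623959 to 113631633). Its level was 13.1 and 14.1 FPKM under the WT label and 16.8 and 17.6 FPKM under the KO label. The groups did not overlap, with a gap larger than the spread within either. The log2 change came to 0.32 ± 0.056 (SE; adjusted p from limma = 0.00802), and over the 14 alternatives the adjusted p reached 0.0421.

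The partners of VHL in its ligase moved in both directions. Of 6 tested, 1 rose and 2 fell, with a median log2 change of -0.05, near the shares of 24.4% higher and 23.3% lower over all tested genes. Tceb1 (elongin C), which links VHL to the cullin, rose by 0.40 ± 0.052 (SE; limma, adjusted p = 0.00316), from 92.5 and 84.3 FPKM to 115 and 120 FPKM. The RING subunit Rbx1 fell by 0.27, from 56.1 and 52.4 FPKM to 44.3 and 45.2 FPKM. Nedd8, the modifier that activates cullins, fell by 0.11 (limma, adjusted p = 0.0335). Its call was lost on omission of WT replicate 1 (adjusted p = 0.0677), of WT replicate 2 (0.139) and of KO replicate 1 (0.132). The scaffold Cul2 was at 21.2 and 21.8 FPKM against 21.1 and 20.3 FPKM, and elongin B (Tceb2) was at 467 and 432 FPKM against 430 and 444 FPKM. Neither passed the test. The partners called lower numbered 1 in 5 of 14 alternatives, those without a filter, without a trend and with the omission of either WT library or of KO replicate 1.

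Hif1an, the asparaginyl hydroxylase, was the member with the smallest measured change. It lies on the plus strand of chromosome 19 (44562850 to 44576274) and was at 14.0 and 13.3 FPKM against 12.8 and 13.4 FPKM. The groups overlapped, and the log2 change was -0.05 with a 95% interval from -0.19 to 0.08 (limma, adjusted p = 0.451).

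Among the cofactors through which HIF acts, and other HIF regulators, 21 were tested, of which 11 rose and 2 fell, with a median log2 change of 0.17. Over all tested genes 24.4% rose and 23.3% fell, with a median of 0.006. With libraries scaled to the same sum, 9 of the 21 were called higher, where 1937 of all 10827 tested genes were. The coactivators Ep300 and Crebbp, whose contact HIF1AN blocks, did not pass the test, at 11.9 and 12.7 FPKM against 11.6 and 11.7 FPKM for Ep300 and at 4.52 and 4.81 FPKM against 4.74 and 4.76 FPKM for Crebbp. Cited2, a HIF target whose protein competes with HIF for these coactivators, rose by 0.49 ± 0.034 (SE; limma, adjusted p = 0.000552). The chaperone Hsp90aa1, which stabilises the alpha subunit, rose by 0.49, the glycolytic enzyme and HIF coactivator Pkm by 0.44, and the deacetylase Hdac7 by 0.38. Cited2 and Pkm are also counted in the lists of HIF targets, so their rises enter more than 1 list. The 2 that fell were Os9 (-0.31), a lectin of the endoplasmic reticulum also reported to promote HIF hydroxylation, and the deacetylase Hdac2 (-0.11). Hdac2 was not called after the omission of any 1 library (limma, adjusted p from 0.053 to 0.195).

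The HIF targets in the set also parted. Ndrg1, a stress-response protein induced by hypoxia and iron loss, had the largest change of the 10 genes. It lies on the minus strand of chromosome 15 (66929318 to 66969640). Its level was 21.3 and 21.8 FPKM under the WT label and 51.2 and 50.4 FPKM under the KO label. The replicates of each group lay within 1 FPKM, and the KO values were far above the WT values, with a ratio of means of 2.36. The log2 change came to 1.20 ± 0.036 (SE; adjusted p from limma = 7.48e-05), and 0.813% of all tested genes had a higher one.

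Car9 encodes carbonic anhydrase 9, a membrane enzyme of pH control that is widely used as a hypoxia marker in tumours. It lies on the plus strand of chromosome 4 (43506966 to 43513729) and was at 7.95 and 7.41 FPKM against 6.44 and 6.70 FPKM. Both KO values were below both WT values, a pattern that 38.2% of all tested genes showed. The log2 change was -0.20 with a 95% interval from -0.36 to -0.03 (limma, adjusted p = 0.0556). It passed the threshold in 3 of 14 alternatives: with libraries scaled to the same sum (adjusted p = 0.0303), without a mean-variance trend (0.0432) and with robust moderation (0.0484). Over all 14 the adjusted p reached 0.236. The log2 change of Ndrg1 exceeded that of Car9 by 1.40 ± 0.061 (SE; limma, adjusted p = 0.000173), and their FPKM ratio was 2.68 and 2.94 in the libraries labelled WT against 7.95 and 7.52 in those labelled KO.

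**Figure D3:**
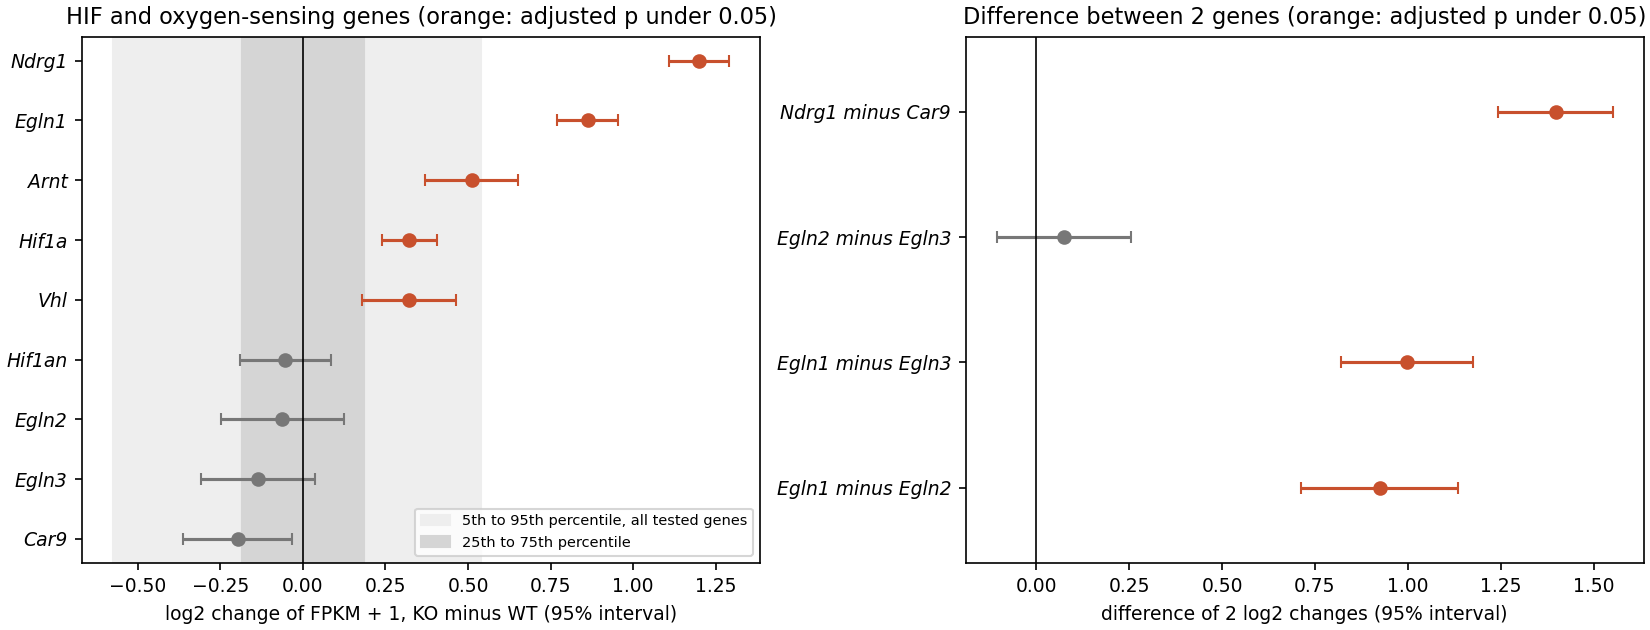
Left, log2 change (KO minus WT, on the FPKM + 1 scale) of the 9 tested genes with 95% intervals, over the central ranges of all tested genes (grey bands). Right, the difference between the log2 changes of 2 genes. The intervals of Ndrg1 and Egln1 lie wholly above the 95th percentile of all genes, and of the 4 differences only that between Egln2 and Egln3 has an interval that includes 0.

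The levels kept their outer order and changed in the middle. In the libraries labelled WT the order was Hif1a, Egln1, Ndrg1, Egln3, Egln2, Arnt, Hif1an, Vhl, Car9 and Epas1. The ranges of the neighbours Egln3 and Egln2 overlapped there, as did those of Arnt and Hif1an and of Hif1an and Vhl. In the libraries labelled KO the order was Hif1a, Ndrg1, Egln1, Arnt, Vhl, Egln2, Egln3, Hif1an, Car9 and Epas1. There the ranges of Vhl and Egln2 and of Egln2 and Egln3 overlapped. Ndrg1 thus moved from below Egln1 to above it, with no overlap of the ranges of these genes in either group.

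The 5 rising genes were next set beside these 2 lists of known HIF targets, chosen like the other lists with earlier results of these data known. Of 20 tested glycolytic targets, 17 rose and 1 fell, with a median log2 change of 0.51. Of 30 tested targets with other functions, 26 rose and 1 fell, with a median of 0.48. Over all tested genes 24.4% rose and the median was 0.006. With libraries scaled to the same sum, 15 glycolytic and 24 other targets were called higher, where 1937 of all 10827 tested genes were. Together the lists held 50 tested genes. The change of Ndrg1 was exceeded by 2 of these and that of Egln1 by 5. By contrast, 48 of the 50 lay above Car9 and 48 above Egln3. Hif1a and Vhl each had 34 of the 50 above them.

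The 2 targets above Ndrg1 were Ddit4, an inhibitor of mTORC1 (log2 change 1.82), and the mitophagy receptor Bnip3 (1.35). Bnip3 went from 49.7 and 53.1 FPKM to 130 and 134 FPKM. Next among the other targets were the atypical cyclin Ccng2, at 0.98, and the mitochondrial adenylate kinase Ak4, at 0.89. The glycolytic rises were led by the enolase Eno1 (0.78), the regulator of phosphofructokinase Pfkfb3 (0.68) and lactate dehydrogenase Ldha (0.67). The 2 targets that fell were Aldoc, an aldolase isoform, and Plod1, a lysyl hydroxylase of collagen. Aldoc went from 8.38 and 8.53 FPKM to 3.85 and 2.69 FPKM. Its log2 change came to -1.16 ± 0.14 (SE; adjusted p from limma = 0.00239), while its more abundant paralog Aldoa rose by 0.61. Plod1 fell by 0.26 and lost its call without WT replicate 2 (limma, adjusted p = 0.1) or KO replicate 1 (0.0622). Vegfa, the angiogenic factor, rose by 0.76. Aldoa and Vegfa, named outside the naming rule, were chosen after their values were seen. Several classical targets were near 0 in all 4 libraries, among them Lox (at most 0.0227 FPKM) and Stc1 (at most 0.0743 FPKM). Adm was below the filter of 1 FPKM and not tested. It was at 0.0555 and 0.217 FPKM under the WT label and 0.58 and 0.373 FPKM under the KO label.

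**Figure D4:**
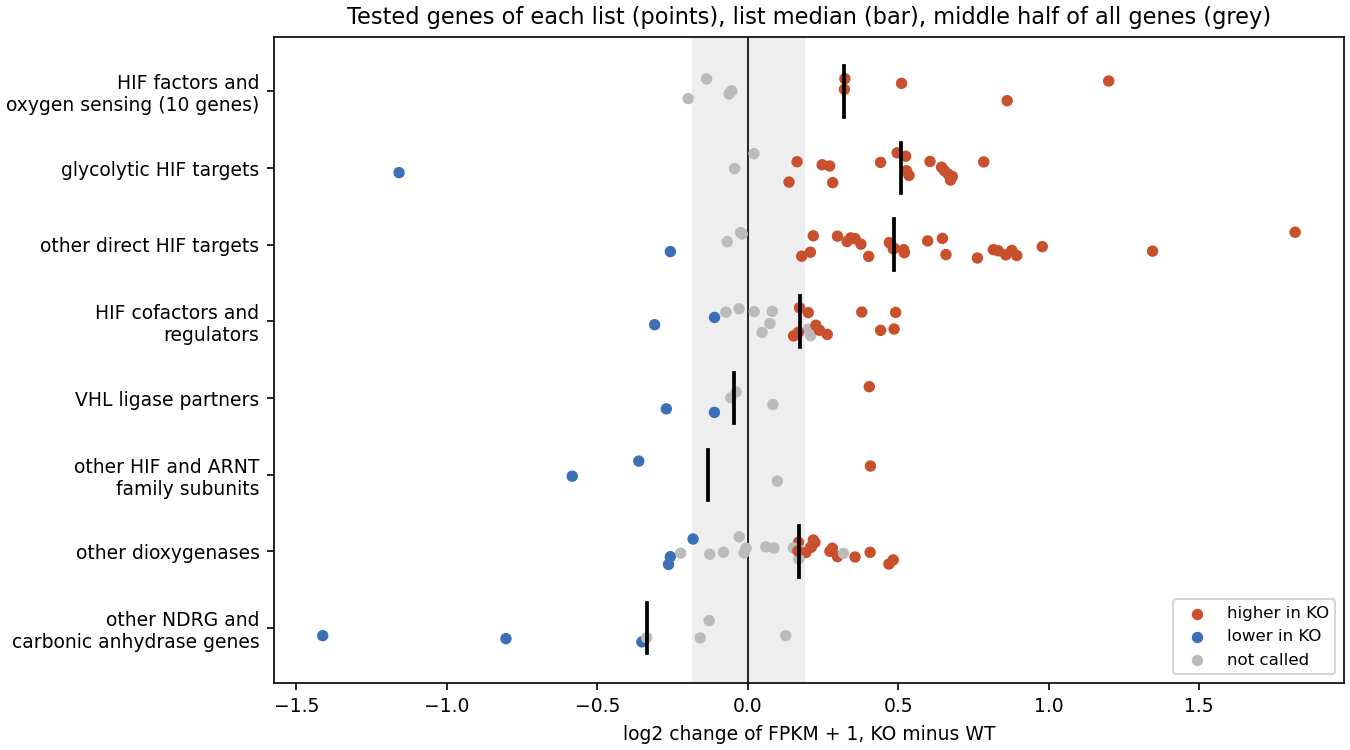
Log2 change (KO minus WT) of each tested gene, by list; orange points were called higher, blue points lower and grey points neither, black bars are list medians and the grey band runs from the 25th to the 75th percentile of all tested genes. The 2 lists of HIF targets lie mostly to the right, with medians of 0.51 and 0.48, against -0.05 for the VHL partners.

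The genes around each member were examined next, because the median log2 change was not the same on every chromosome. These medians ran from -0.12 on chromosome 13 to 0.23 on chromosome 2, and their differences were not tested. Over the 20 chromosomes with tested genes, chromosome 12 had the second-highest median log2 change, 0.15, after chromosome 2. Hif1a and Egln3 both lie on chromosome 12. Of the 20 tested genes nearest to Hif1a, 6 rose and 0 fell (limma), with a median of 0.13, beside its own 0.32. Over all tested genes 24.4% rose and 23.3% fell, and the median log2 change was 0.006. The number that rose near Hif1a was close to the share over all genes, while the number that fell, 0, was below it. Of the 20 nearest to Egln3, 10 rose and 1 fell, with a median of 0.23, beside its own -0.14. The part of a chromosome-wide shift in the change of Hif1a was not tested.

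The neighbours of the other rising genes had medians at or below 0.01. Around Ndrg1, 3 of the 20 nearest genes rose and 8 fell, with a median of -0.09. Around Egln1, 4 rose and 8 fell, with a median of -0.14, and around Vhl, 4 rose and 9 fell, with a median of -0.17. Around Arnt, 4 rose and 4 fell, with a median of 0.01. The shares over all tested genes were 24.4% higher and 23.3% lower. The rises of Ndrg1 and Egln1 were larger than those of all 20 of their neighbours.

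**Figure D5:**
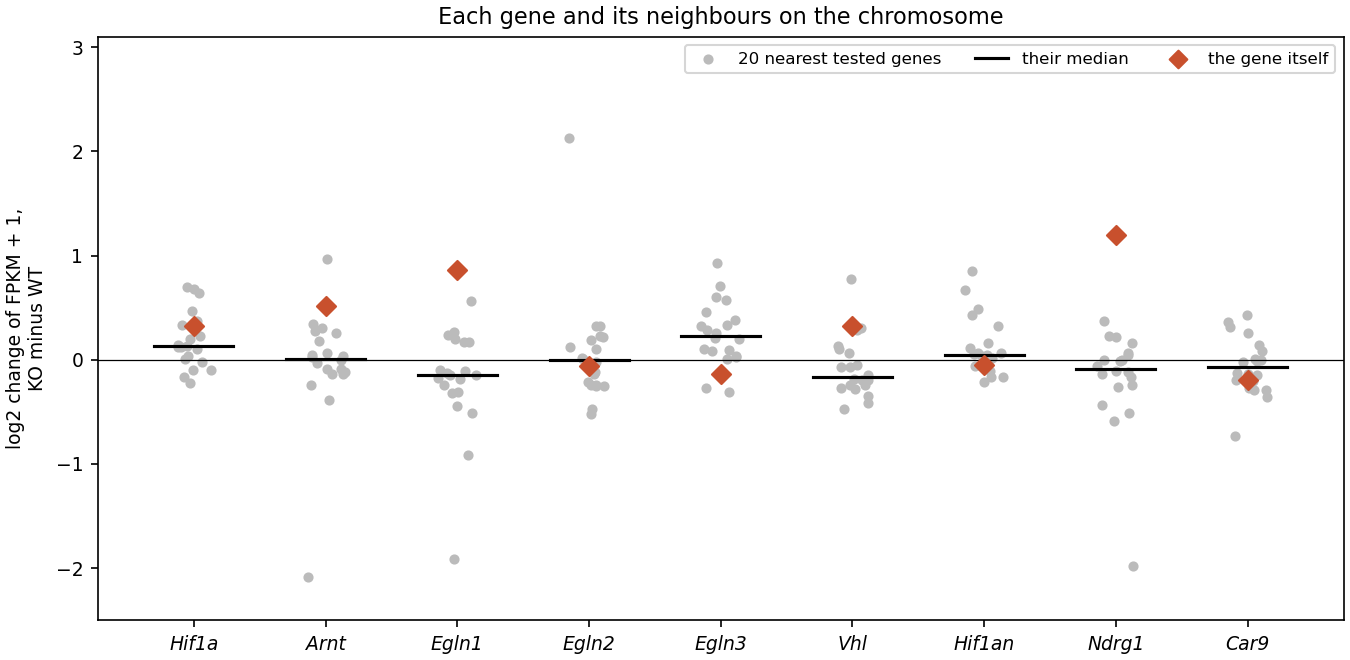
Log2 change (KO minus WT) of each tested gene (diamond) beside its 20 nearest tested genes on the chromosome (grey points; jittered sideways) and their median (bar). The diamonds of Ndrg1 and Egln1 lie above all of their neighbours, and that of Egln3 lies below a neighbour median of 0.23.

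Some members share their locus with other annotated genes. Exons of Hif1a, Ndrg1 and Car9 overlap exons of predicted genes on the opposite strand, and those of Egln2 overlap Cyp2t4 on the opposite strand. Hif1a also overlaps a predicted gene on its own strand. The library kit marks strand, but whether the counting used it is not given in the sources used here, so reads of these partners could not be told apart. Cyp2t4 was at 0.0499 FPKM in WT replicate 1 and at 0 in the other libraries. For Egln1, Egln3, Vhl, Hif1an, Arnt and Epas1 no exon of another gene overlapped.

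The genes most like Ndrg1 over the 4 libraries were taken as the 5 with the smallest Euclidean distance between centred log2 profiles. They were Fbn1, a microfibril protein (distance 0.051, log2 change 1.16), and the DNA methyltransferase Dnmt3a (0.054, 1.19). They were followed by the ferritin light chain Ftl1 (0.058, 1.15), the glycine transporter Slc6a9 (0.070, 1.24) and the small GTPase Rhob (0.079, 1.27). With 4 libraries in 2 groups, this likeness reflects little more than a change of similar size on the log2(FPKM + 1) scale with little spread. That scale understates the change of a low gene such as Dnmt3a, at 1.30 and 1.46 FPKM against 4.41 and 4.47 FPKM.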

How the data were processed

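The authors deposited FPKM values, estimated fragments scaled by transcript length and library size, for 24346 symbols in 4 libraries. Cufflinks 2.2.1, TopHat2 2.0.13, SAMtools 0.1.19 and Bowtie2 2.2.3 are the tools, and mm10 the build, per the submitters' processing notes; the annotation, settings and strand handling are not given in the sources used here. Per the labels' protocols, libraries came from a stranded mRNA kit.

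The KO-minus-WT difference was fitted in limma 3.58.1 (R 4.3.3) on log2(FPKM + 1), for 10827 symbols with a mean of at least 1 FPKM, with lmFit and eBayes with a trend. Tests were two-sided, with Benjamini-Hochberg adjustment over all tested genes and calls at an adjusted p under 0.05. The pseudocount of 1 understates changes of low genes. An exact permutation test of 2 against 2 libraries cannot go below p = 0.333 and was not used. Differences between 2 genes were fitted as added rows of the same table, with adjustment over all rows. Of 5 listed pairs, 4 could be tested, since Epas1 was below the filter. The procedure was tested on simulated data.

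FPKM keep no counts. Depth was estimated from symbols with 1 annotated transcript at or below 0.1 FPKM, as the depth at which most values are whole fragments; 62.4% to 73.5% were within 3% of 1 to 3 fragments. Depth limits mainly Epas1. Coordinates came from GENCODE M21 (GRCm38), neighbours were 10 tested genes on each side, and promoters came from RefSeq. Python 3.11.15, numpy 2.4.6, pandas 2.3.3 and matplotlib 3.10.9 were used for tables and figures.

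The genes and lists were chosen with earlier results of these data known. Named genes were all 10 members, Arid5a, in each list the called genes furthest from 0 (at most 4), and the 5 nearest profiles. Other genes named were chosen after their values were seen. Alternatives covered the pseudocount, filter, scaling, moderation, trend, replicate block and the omission of each library, with the filter then applied to the remaining libraries.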

Additional observations from a re-analysis of the deposited data

How the results depend on the processing

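The 5 higher calls, those of Ndrg1, Egln1, Arnt, Hif1a and Vhl, held in all 14 alternatives, as did the 3 differences that passed the test. The number of the 10 genes called lower went from 0 to 2 when libraries were scaled to the same sum, and to 1 with robust moderation and 1 without a mean-variance trend. Over all genes, 5159 were called, and 3377 to 4109 when 1 library was left out. The lowest number, 3377, came without WT replicate 2. The other HIF targets called lower were 1, but 2 with libraries scaled to the same sum and 0 to 1 when 1 library was left out. The change of Egln2 was -0.14 to 0.016 with 1 library left out, positive without KO replicate 1. The difference between Egln2 and Egln3 was -0.014 to 0.16, negative without KO replicate 2. The cause was not tested, beyond the fewer samples. The labels give both groups the replicate numbers 1 and 2 without saying that a number marks a shared batch. The deviations of same-numbered libraries from their group means correlated at r = 0.138 over genes, with 2 pairs. With the replicate number as a block, 4673 genes were called, and the same 5 of the 10 genes.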

Other observations

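Relatives of the HIF targets Ndrg1 and Car9 were looked at as a further list. Of 7 other NDRG and carbonic anhydrase genes tested, 0 rose with limma (0 also at an unadjusted p under 0.05) and 3 fell, with a median log2 change of -0.34. Over all tested genes 24.4% rose and 23.3% fell. Car6, a secreted carbonic anhydrase, went from 2.41 and 1.97 FPKM to 0.167 and 0.226 FPKM. It passed the filter of 1 FPKM on the mean only through the libraries labelled WT. Its place among the tested genes and its fall are thus not independent, and its call supports nothing about the list. The count of 3 that fell and the median include Car6 and carry the same limit. No other tested gene of the list had a group mean under 1 FPKM. The mitochondrial Car5b changed by -0.80 and Ndrg4 by -0.35. Ndrg3 was at 37.8 and 39.6 FPKM against 40.8 and 43.9 FPKM and did not pass the test. Car12, the other carbonic anhydrase known as a HIF target, was at 0.14 and 0.252 FPKM under the KO label and listed at 0 under the WT label. Of this list, 5 genes were lower with libraries scaled to the same sum, where 3261 of all 10827 tested genes were. With robust moderation 5 were lower, where 2671 of all 10827 were. With a filter of 5 FPKM 1 was lower, where 2144 of all 8505 tested genes were. Without a filter 2 were called higher, where 2581 of all 16191 were. A change of filter also alters which genes of the list are tested.

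Other dioxygenases that need oxygen, iron and 2-oxoglutarate or act on cysteine were also examined. Of 29 tested, 14 rose and 3 fell, with a median log2 change of 0.17, where 24.4% of all tested genes rose and 23.3% fell. With libraries scaled to the same sum, 9 of the 29 were called higher, where 1937 of all 10827 tested genes were. Fewer were called higher without WT replicate 1, and fewer lower without either WT library or KO replicate 1. Those fits leave 1 library in a group, and fewer of all tested genes were called in them as well. The largest rises were those of the histone demethylase Kdm4b (0.48), the DNA demethylase Tet3 (0.47), the histone demethylase Kdm5b (0.41) and the collagen prolyl hydroxylase P4ha1 (0.36). Kdm5b was not called without WT replicate 1 (limma, adjusted p = 0.0535). Of these 29, 6 are also among the listed HIF targets, P4ha1 and Kdm4b included. Ado, a cysteamine dioxygenase that senses oxygen apart from HIF, was at 11.2 and 10.5 FPKM against 8.21 and 10.1 FPKM and did not pass the test.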
